A study of Mus musculus with 16 samples.

Results

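Fgf21, Gdf15, Vegfa, Hbegf, Inhba, Inhbb, Lif and Il6 are 8 genes for secreted growth factors and cytokines, grouped by name as factors that stressed cells release. Every probe set that names 1 of them alone was taken, which gave 12 of 34945 such probe sets on the array and 7 of 18193 genes. Gdf15 was not analysed here. The study measured RNA of mouse embryonic fibroblasts, connective tissue cells grown in culture from embryos, to ask which genes need the transcription factor CHOP for their response to a blocked proteasome. The cells were wild-type (CHOP+/+) or carried the CHOP-/- genotype, and were left without stress or exposed to 1 µM MG132, a proteasome inhibitor, for 8 hours. Each of the 4 groups had 4 culture plates and 1 array per plate, 16 arrays in all. For the unstressed plates the treatment label reads none, but their description names DMSO as a vehicle. They are called untreated, and if they lacked the solvent, its effect is part of the MG132 comparisons. The labels do not say from how many embryos or isolations the cells of each genotype came. Genotype and cell isolation therefore cannot be told apart, and p-values measure only the spread between plates.

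When the proteasome is blocked, misfolded and short-lived proteins accumulate and the integrated stress response is switched on. In that response translation is slowed, the transcription factor ATF4 is made, and ATF4 induces Ddit3, the gene of CHOP, itself a member of the C/EBP family. Secreted factors carry the stress of a cell to other cells. FGF21 is a metabolic hormone made mainly by liver, VEGF-A is a growth factor for blood vessels and HB-EGF is a ligand of the EGF receptor. Activins signal through SMAD proteins, and LIF and interleukin-6 signal through the shared receptor subunit gp130.

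The promoters of Fgf21 and Il6 are printed because the MG132 response of these members differed most between the genotypes, upward and downward in the knockout. Each sequence is the 250 bases before the annotated RefSeq start (GRCm38.p6), read 5′ to 3′ on the strand of the gene, at chr7:45615491-45615740 (minus strand) for Fgf21 and chr5:30012864-30013113 (plus strand) for Il6. Capitals mark matches, on either strand, to 4 patterns. These are TGATGNAAN for the C/EBP-ATF composite element, TTGCNNAA for a C/EBP site, TGANTCA for an AP-1 site and, for an NF-kB site, GGGA, any base, TT, any base and CC in a row, and no matches in capitals overlap.
Fgf21: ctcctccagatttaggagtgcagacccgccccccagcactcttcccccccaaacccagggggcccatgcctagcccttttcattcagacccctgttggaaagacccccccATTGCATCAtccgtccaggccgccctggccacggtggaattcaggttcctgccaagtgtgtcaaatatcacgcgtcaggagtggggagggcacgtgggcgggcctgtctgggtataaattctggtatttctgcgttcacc
Il6: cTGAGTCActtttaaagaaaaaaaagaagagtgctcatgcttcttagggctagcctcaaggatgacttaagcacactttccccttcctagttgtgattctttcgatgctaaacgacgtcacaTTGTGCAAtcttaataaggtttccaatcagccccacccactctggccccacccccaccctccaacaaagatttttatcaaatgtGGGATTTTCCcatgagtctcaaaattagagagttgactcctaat
Fgf21 had 1 composite element, at position -140 from the start. Il6 had 1 AP-1 match at -249, 1 C/EBP match at -128 and 1 NF-kB match at -44. Of 32851 promoter windows of the same length, 3.44% held the composite pattern, 9.56% the C/EBP pattern, 6.75% the AP-1 pattern and 0.980% the NF-kB pattern. Inhba had 1 C/EBP match, but its window (chr13:16011601-16011850) lies before an internal start, as the annotated gene begins at 16004256. Lif had 1 AP-1 match, while the windows of Vegfa (at its outermost start) and Inhbb held none of these letters. Hbegf was not scanned. The set of patterns was revised after a first scan of these promoters. That scan used a looser NF-kB pattern, GGG and CC with any 5 bases between, which 45.8% of windows held, as did those of Fgf21, Vegfa, Inhba, Lif and Il6. It was replaced by the stricter one with the match in Il6 already known. A hypoxia core, ACGTG (16.6% of windows, 2 overlapping matches in Fgf21), and a heat shock core, GAANNTTC (6.69% of windows, 1 match in Inhbb), were also searched and are not in capitals. A match is a run of letters and was not tested for binding.

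The deposited values are MAS5 signals, the brightness of a probe set after each array was scaled to a common mean. The array medians ranged from 90.1 to 113, and arrays of a group correlated at 0.985 to 0.992 in log2 values across the tested genes. Ddit3, the targeted gene, averaged 1017 ± 101 (SD, n = 4) in untreated and 7724 ± 587 in MG132-treated wild-type cells, against 368 ± 24.0 and 396 ± 38.9 in the knockout cells. A second Ddit3 probe set did not separate the groups (means 256 to 290.2), and the position of either relative to the deleted part was not checked here. The fibroblast genes Col1a1, Col1a2, Vim and Fn1 were above the array median on all 16 arrays, and Lum on none. Several fibroblast markers, Col1a1 among them, differed between the genotypes without treatment. Col1a1 averaged 19282 in wild-type and 10951 in knockout cells, Pdgfrb 6439 and 2534, and Pdgfra 2351 and 118. Higher in the knockout were Col3a1 (3056 and 7140), Thy1 (227 and 2727) and Dcn (38.5 and 1075). The 10 fibroblast markers summed to 112006 to 130655 in the other 3 groups and to 97305.5 to 102499 in treated knockout cells.

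Tests used log2(signal + 16) in a limma model over all 16 arrays, with Benjamini-Hochberg adjustment over 11443 genes and a threshold of 0.05. A gene was tested through the probe set with its highest mean when this lay above the array median on at least 4 arrays, and 6 of the 7 genes passed. Il6 did not, and Fgf21 was above the median on 7 arrays, 4 of them those of MG132-treated knockout cells. After MG132, Fgf21, Inhba and Vegfa rose and Hbegf and Inhbb fell in wild-type cells, where 27.2% of tested genes rose and 36.9% fell. In knockout cells Fgf21 and Vegfa rose, Hbegf and Inhbb fell, and Inhba did not pass, where 25.7% of genes rose and 36.7% fell. With calls this common, a change by itself does not set these factors apart from other genes. The difference between the responses (knockout minus wild-type) was past the threshold upward for Fgf21 and Vegfa and downward for Inhba and Inhbb, beside 14.2% and 14.1% of all genes. Against the wild type, the untreated knockout had higher Fgf21, Vegfa, Hbegf, Inhba and Inhbb and 0 tested members lower, beside 28.6% and 26.9% of all genes. Under MG132 the knockout had higher Fgf21, Vegfa, Hbegf and Inhbb and lower Inhba, beside 30.7% and 28% of all genes. In either direction 64%, 62.4%, 28.3%, 55.4% and 58.7% of genes passed in these 5 comparisons. Groups of 4 plates did not overlap for 56.6% of genes in the wild-type response, 58.4% in the knockout response, 49.6% between untreated genotypes and 53.4% between treated ones. These comparisons reuse the same 16 arrays and are not independent of each other. Centring each array on the median of its tested genes moved all genes up by 0.20 (log2) in the wild-type response and by 0.14 in the knockout response. The all-gene split then went from 3108 higher and 4221 lower to 4580 and 2855 in wild-type cells, and from 2941 and 4204 to 3985 and 3172 in knockout cells, while for the difference it went from 1622 and 1616 to 1251 and 2018. Of the members' calls, centring ended that of the Vegfa difference.

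**Figure D1:**
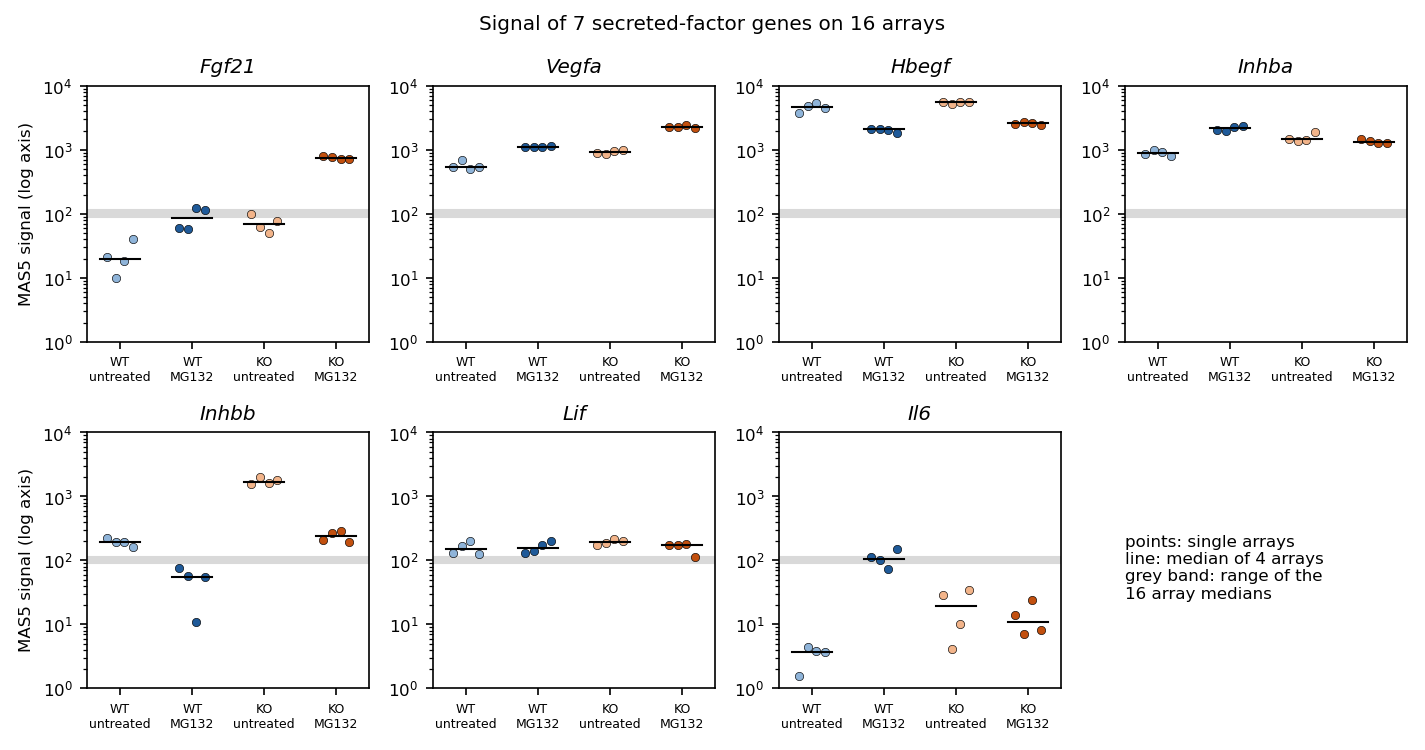
MAS5 signal (log axis) of 1 probe set for each of the 7 genes in the 4 groups of wild-type (WT) and knockout (KO) cells. Points are single arrays, lines the median of 4 arrays, and the grey band spans the 16 array medians (90.1 to 113). All Fgf21 values of a group stand above the band only in MG132-treated knockout cells, at 732 to 817, and Il6 reaches the band only in MG132-treated wild-type cells.

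Fgf21, the hormone, was lowest in untreated wild-type cells, with signals of 21.2, 10.0, 18.4 and 40.5, and gave 59.2, 57.3, 122 and 115 after MG132. Untreated knockout plates gave 99.7, 63.1, 51.1 and 76.3, and treated ones 817, 764, 732 and 732. Treated knockout cells lay above every other array, whereas treated wild-type and untreated knockout cells overlapped. Most values of the other 3 groups were near or below the array median. On the log2 scale Fgf21 rose by 1.43 (SE 0.26, adjusted p = 7.74e-05) in wild-type cells and by 3.16 (SE 0.26, adjusted p = 2.04e-09) in knockout cells. Its responses differed by 1.73 between the genotypes (95% interval 0.95 to 2.51, adjusted p = 0.00159, or 0.00357 in the fit without the filter). Over the alternatives this difference ranged from 1.42 to 1.89, with adjusted p of the limma test up to 0.0439. The knockout was higher by 1.23 without and by 2.96 with MG132 (adjusted p = 0.000504 and 6.69e-09). In bulk RNA, fewer cells making a transcript and less transcript per cell cannot be told apart. The size of these changes depends on the 16 units added to each signal, as the wild-type response was 2.00 with 1 unit and 0.80 with 64, and the difference between the untreated genotypes ranged from 0.66 to 1.76 over the alternatives. The difference between the responses likewise rests on untreated wild-type signals well below the array median, and Fgf21 passed the filter through the treated knockout arrays.

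Of 6 receptors and co-receptors for FGF ligands, 3 were tested, and Klb, the co-receptor that FGF21 needs, was not among them. Fgfr1, through which FGF21 signals together with that co-receptor, had mean signals of 1402 untreated and 1399 treated in the wild type, against 1211 and 2269 in the knockout. Its response was 0.03 in wild-type cells (adjusted p = 0.831) and a rise of 0.90 in knockout cells, a difference of 0.87 (adjusted p = 0.000642). Fgfr2 rose by 0.78 in wild-type cells and gave 0.07 in knockout cells, a difference of -0.72 (adjusted p = 0.000877). Fgfr3 rose by 0.59 in knockout cells and gave -0.35 in wild-type cells, a difference of 0.94 (adjusted p = 0.00470).

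Vegfa, the vessel growth factor, gave 532, 701, 512 and 548 in untreated wild-type cells and 1106, 1095, 1117 and 1154 with MG132. The knockout plates gave 909, 857, 952 and 1004 untreated and 2262, 2319.9, 2487 and 2202 with MG132. No groups overlapped, and the order of levels was untreated wild-type, untreated knockout, treated wild-type, treated knockout. Vegfa rose by 0.95 (SE 0.08, adjusted p = 3.48e-09) in wild-type and by 1.30 (SE 0.08, adjusted p = 3.81e-11) in knockout cells. It was higher in the knockout by 0.69 without and 1.04 with MG132 (SE 0.08 each). Its responses differed by 0.35 (95% interval 0.10 to 0.59, adjusted p = 0.0320). That call was lost with quantile normalisation (0.30, adjusted p = 0.0559) and with median centring (0.29, adjusted p = 0.0759). It was also lost without wild-type untreated replicate 2 (0.25), wild-type MG132 replicate 1 or 2 (0.34 each), knockout untreated replicate 1 (0.34) or 2 (0.31), or knockout MG132 replicate 2 (0.35) or 3 (0.31), with adjusted p from 0.0510 to 0.0687. The other Vegfa probe set averaged 370.0 and 825 in the wild type and 563 and 1782 in the knockout. In a fit over 21651 probe sets it rose by 1.13 and 1.65, a difference of 0.52 (adjusted p = 0.0184). In that fit 58.8% of probe sets passed for the wild-type response, 56.4% for the knockout response, 24.2% for the difference, 49.8% between untreated and 54.6% between treated genotypes.

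The other VEGF ligands did not all move with Vegfa. Vegfd, a ligand for lymphatic vessels, fell in both genotypes (log2 responses of -1.90 in wild-type and -1.19 in knockout cells), as did Vegfb (-1.09 and -0.29). Vegfc, also a lymphatic factor, rose by 0.54 and 1.12. Each of these 3 had a more positive response in the knockout, with differences of 0.70, 0.80 and 0.58 (adjusted p = 0.000726, 0.000178 and 0.0115). Over all genes 14.2% were called higher for the difference. Of the 4 ligands tested 1 rose and 2 fell in each genotype, and their median wild-type response was -0.27 beside -0.07 over all genes. Among all genes 27.2% rose and 36.9% fell in wild-type cells, and 25.7% rose and 36.7% fell in knockout cells. Among 5 receptors, Nrp1, a co-receptor of VEGF-A, fell in both genotypes (-0.55 in wild-type and -1.64 in knockout cells). Flt1, a receptor that binds VEGF-A, averaged 132 and 365 in the wild type, a rise of 1.40, and 211 and 159 in the knockout (-0.38, adjusted p = 0.0772). Kdr, the main signalling receptor of VEGF-A and an endothelial marker, averaged 43.9 to 75.9 except in treated knockout cells (181, a rise of 1.86, SE 0.42). Kdr passed the filter through the treated knockout arrays, and its rise starts from untreated knockout signals of 8.53 to 91.8, mostly below the array median. The other 4 endothelial markers, Pecam1, Cdh5, Tek and Emcn, reached at most 94.7 on any array, and none was at 0. The 5 endothelial markers summed to 179 to 269 in untreated and 155 to 267 in treated wild-type plates, and to 96.0 to 249 and 276 to 428 in knockout cells. Their part in the Vegfa result was not tested.

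**Figure D2:**
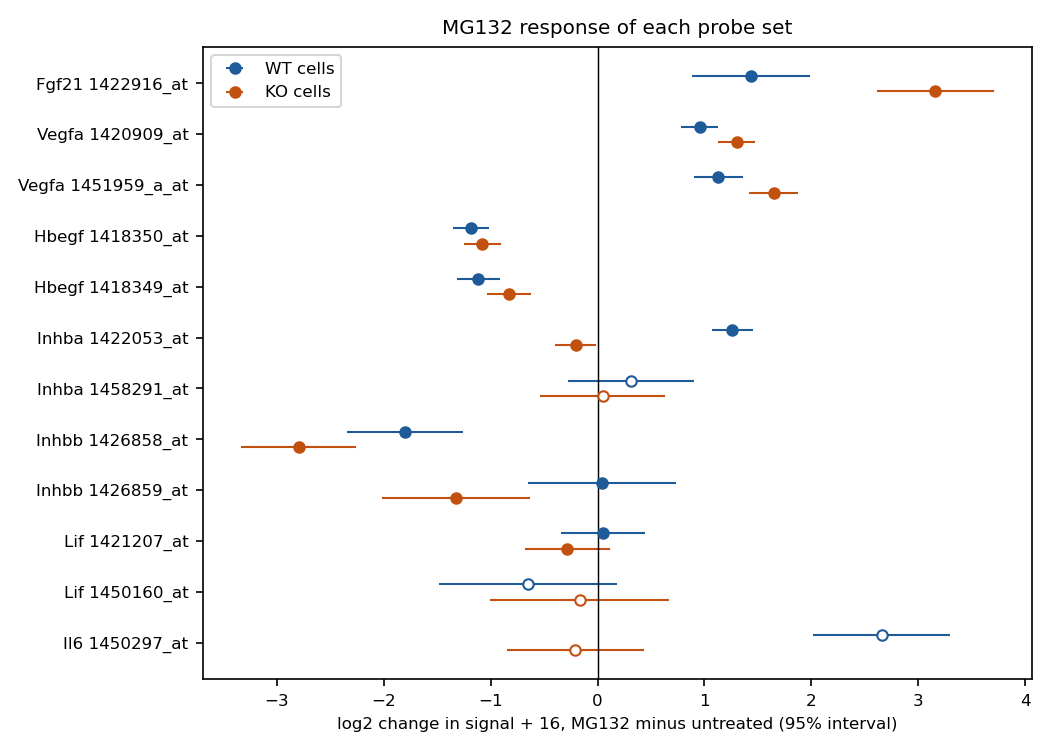
Log2 change with MG132 (x axis, 95% interval) of each of the 12 probe sets, in wild-type (WT, blue) and knockout (KO, orange) cells. Open points are probe sets that did not pass the filter. Fgf21 and Vegfa rose in both genotypes and Hbegf fell in both, while Inhba and Il6 gave 1.26 and 2.66 in wild-type cells against -0.20 and -0.21 in knockout cells.

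Hbegf, made as a membrane protein and released by ADAM proteases, gave 3763, 4929.9, 5411 and 4575 in untreated wild-type cells and 2137, 2098, 2085 and 1827 with MG132. Knockout plates gave 5599, 5174, 5561 and 5693 untreated and 2579.5, 2706, 2669 and 2457 with MG132. In each genotype all treated plates lay below all untreated ones. Hbegf fell in both genotypes, with log2 responses of -1.18 (SE 0.08, adjusted p = 9.00e-11) in wild-type and -1.08 (SE 0.08, adjusted p = 4.33e-10) in knockout cells. Subtracting one response from the other left 0.10 (adjusted p = 0.545, 95% interval -0.13 to 0.34). The second Hbegf probe set fell as well (-1.11 and -0.83, difference 0.29, adjusted p = 0.141). Without treatment Hbegf was higher in the knockout by 0.25 (adjusted p = 0.0131), but the plates overlapped, the call was lost without wild-type untreated replicate 1 (0.15, adjusted p = 0.0562), and the second probe set gave 0.10 (adjusted p = 0.438). With MG132 the knockout was higher by 0.35 (adjusted p = 0.000823), and by 0.38 in the second probe set (adjusted p = 0.00230).

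Other EGF family ligands went in both directions. Nrg1, a ligand of the ERBB3 and ERBB4 receptors, rose by 1.53 in wild-type and 0.95 in knockout cells (means 297, 886, 356 and 702 in the 4 groups). Ereg, which binds the EGF receptor, fell (-0.54 and -1.37) and was lower in untreated knockout cells (-1.84). Both responses were lower in the knockout (differences -0.58 and -0.83, adjusted p = 0.00431 and 1.27e-06), and the other 4 ligands tested did not pass in either genotype. Of 3 receptors, Erbb2, a receptor without a ligand of its own, fell (-0.83 and -0.59), and Egfr gave 0.27 and 0.24 (adjusted p = 0.112 and 0.164). The ADAM proteases that release such ligands included Adam12, which fell (-0.79 and -0.97), and Adam10, which fell by 0.29 in each. Adam17, a main sheddase of HB-EGF, gave -0.09 (adjusted p = 0.238) in wild-type and fell by 0.21 in knockout cells. Adam9 fell in wild-type cells (means 14505 and 9708) but gave -0.07 in knockout cells (adjusted p = 0.167). Its difference was 0.51 (adjusted p = 3.73e-06). In total 3 of 4 sheddases, not the same ones, fell in each genotype and 0 rose, where 36.9% and 36.7% of all genes fell.

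Inhba encodes the subunit of activin A. Its signals were 852, 984, 929 and 816 in untreated wild-type cells and 2077, 2010.3, 2256 and 2333 with MG132. Knockout plates gave 1508, 1393, 1453 and 1942 untreated and 1493, 1390.2, 1269.7 and 1278 with MG132. The treated wild-type plates were above all others, the untreated wild-type plates below all others, and both knockout groups lay between and overlapped. Inhba rose by 1.26 (SE 0.09, adjusted p = 2.32e-10) in wild-type cells. In knockout cells it gave -0.20 (SE 0.09, adjusted p = 0.0628), and that value passed without knockout untreated replicate 2 (-0.26) or 3 (-0.24) or knockout MG132 replicate 1 (-0.25), with adjusted p of 0.0284, 0.0496 and 0.0356. Without knockout untreated replicate 4, the highest of its group, it was -0.10 (adjusted p = 0.309). The difference between the responses was -1.46 (95% interval -1.74 to -1.19, adjusted p = 7.86e-08), with 1.02% of tested genes lower still. The knockout was higher untreated (0.79) and lower with MG132 (-0.67; adjusted p = 3.29e-07 and 2.82e-06), so the order of the genotypes was opposite in the 2 conditions. A second probe set naming Inhba gave 3.83 to 31.3 over all arrays, below every array median, and was not tested.

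Inhbb encodes the subunit of activin B. It gave 222, 194, 194 and 164 in untreated wild-type cells and 76.0, 56.1, 10.9 and 55.8 with MG132. Knockout plates gave 1553, 1991, 1619 and 1807 untreated and 205, 271, 287 and 192 with MG132. Untreated knockout cells were far above the rest, and treated knockout and untreated wild-type cells overlapped. Inhbb fell in both genotypes, with log2 responses of -1.80 (SE 0.26, adjusted p = 3.90e-06) in wild-type and -2.80 (SE 0.26, adjusted p = 9.62e-09) in knockout cells, and was higher in the knockout by 3.07 without and 2.07 with MG132. The treated wild-type signals were all below the array median, and the wild-type response ranged from -2.22 with a pseudocount of 1 to -0.88 with the mean of both probe sets. The difference between the responses, -1.0 (95% interval -1.76 to -0.23, adjusted p = 0.0479), lay at the threshold. Leaving out any 1 of 13 of the 16 plates ended that call (-0.79 to -1.06, adjusted p 0.0513 to 0.109), and it held without wild-type untreated replicate 1 (-1.06), knockout MG132 replicate 3 (-1.09) or wild-type MG132 replicate 3 (-1.38, adjusted p = 0.000112). The last is the plate with the signal of 10.9. The call was also lost with quantile normalisation (-0.88, adjusted p = 0.0942) and without the filter (adjusted p = 0.0829). It depends on the added constant, as the difference was -0.65 with a pseudocount of 1 (adjusted p = 0.392) and -1.37 with 64 (adjusted p = 0.000109). A second probe set, with means of 75.1, 90.3, 286 and 106 in the 4 groups, did not share the wild-type fall (0.04, adjusted p = 0.919). In knockout cells it fell by 1.32 (adjusted p = 0.00203), and its difference was -1.37 (adjusted p = 0.0395, or 0.0696 in a fit without the filter). Against the wild type, that probe set was higher in the untreated knockout by 1.72 (adjusted p = 0.000231), but with MG132 it gave 0.35 (adjusted p = 0.400), with overlapping plates.

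**Figure D3:**
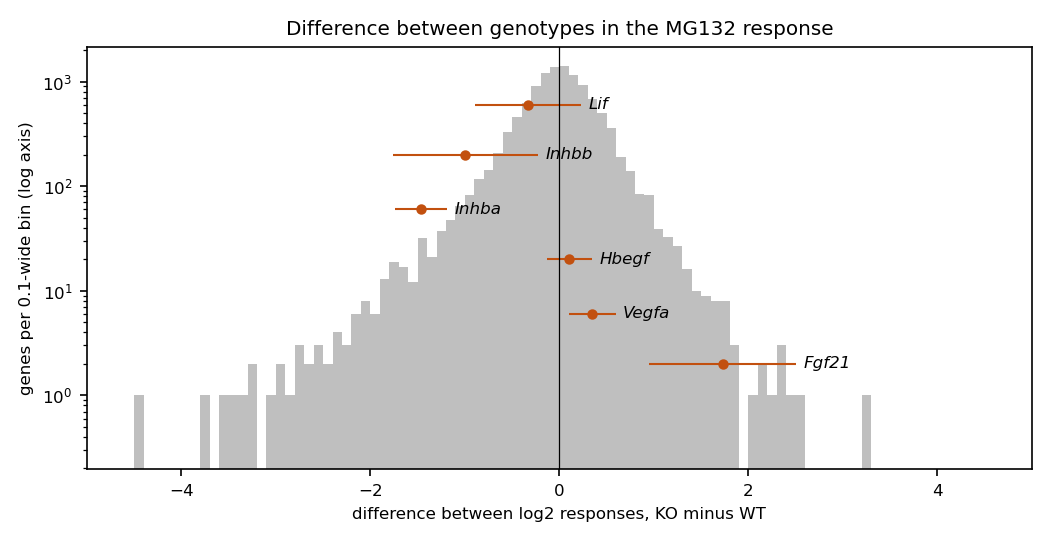
Difference between the log2 responses, knockout (KO) minus wild-type (WT), for all 11443 tested genes (grey bars, genes per bin on a log axis) and for the 6 tested members (points with 95% intervals; their height has no meaning). Fgf21 lies at 1.73 and Inhba at -1.46, and the intervals of Hbegf and Lif include 0.

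Among the other genes of the activin pathway, follistatin (Fst), a secreted protein that binds and blocks activins, averaged 1430.5 and 1765 in the wild type and 947 and 415 in the knockout. Fst rose by 0.30 in wild-type (adjusted p = 0.00223) and fell by 1.16 in knockout cells, a difference of -1.46 (SE 0.11, adjusted p = 7.70e-09). Of 4 antagonists, 2 rose and 2 fell in wild-type cells, and 1 rose and 3 fell in knockout cells. Over all genes 27.2% rose and 36.9% fell in wild-type cells, and 25.7% rose and 36.7% fell in knockout cells. Fstl3, a relative of follistatin, fell (-0.60 and -0.41). Of 3 tested receptors, Tgfbr3, a co-receptor for inhibin, fell (-1.22 and -1.20), as did Acvr1b, the type I receptor of activin (-0.39 and -0.57). The third, Acvr2a, averaged 863 and 983 in the wild type and 906 and 744 in the knockout. It fell by 0.28 in knockout cells (adjusted p = 0.0127), and its difference was -0.47 (adjusted p = 0.0104). Smad3, a carrier of the activin signal, fell (-1.01 and -0.70), whereas Smad4, the common partner, rose by 0.48 and 0.74. Smad2 gave -0.09 (adjusted p = 0.208) in wild-type cells and rose by 0.64 in knockout cells, a difference of 0.73 (adjusted p = 4.81e-06). The other subunit genes, Inha, Inhbc and Inhbe, did not pass the filter.

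Il6 was near the floor of the array except in treated wild-type cells. The untreated wild-type plates gave 1.56, 4.38, 3.80 and 3.72 and the treated ones 112, 100.1, 72.7 and 152. In the knockout the signals were 28.4, 4.11, 10.2 and 34.8 untreated and 13.9, 7.01, 24.2 and 8.24 with MG132. All treated wild-type plates lay above all others, and the knockout groups overlapped each other. Only 3 arrays were above their median, so the values come from a fit of 18193 genes without the filter, in which 40.1% of genes were called in the wild-type response. In that fit Il6 rose by 2.66 (SE 0.31, adjusted p = 4.52e-07) in wild-type cells and gave -0.21 (SE 0.31, adjusted p = 0.681) in knockout cells, where 38.9% of genes were called. The difference was -2.86 (95% interval -3.77 to -1.96, adjusted p = 0.000113), where 16.3% of genes were called. The size of the wild-type change rests on the added constant, and was 4.67 with 1 unit and 1.34 with 64, and the difference -4.94 and -1.44. Untreated knockout cells gave 0.77 against wild-type (adjusted p = 0.0642, with 34.2% of genes called). This value passed with a pseudocount of 1 (1.90, adjusted p = 0.0214) and without knockout untreated replicate 2 (1.01, adjusted p = 0.0175). With MG132 the knockout was lower (-2.09, adjusted p = 1.38e-05, with 36.6% of genes called).

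Interleukin-6 is also made by macrophages. The 9 macrophage and leukocyte marker symbols looked up name 8 genes, and all 8 had a probe set. Ptprc, Itgam, Lyz2 and Aif1 reached at most 74.7 on any array, below every array median, and none of the 8 was at 0. Csf1r was above the array median on every array, at 168 to 349. Cd68 gave 84.8 to 261, mostly above the median, and Adgre1 29.1 to 140, mostly below it. The summed marker signal was 760 to 910 in untreated and 845 to 1117 in treated wild-type cells, and 1479 to 1738 and 2219.7 to 2440.1 in knockout cells, where Il6 was low. Cd14 made up most of the latter (means 1054 and 1736). Cd68 rose by 0.63 in wild-type cells and Csf1r by 0.47, with 0.52 for Csf1r in knockout cells. Their part in the Il6 result was not tested.

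Lif, the other gp130 cytokine, gave 129, 167, 203 and 125 in untreated and 132, 139.9, 173 and 202 in treated wild-type cells. Knockout plates gave 175, 187, 217 and 202 untreated and 177, 173, 177 and 112 treated. The 4 groups overlapped. Its response was 0.05 (95% interval -0.34 to 0.45, adjusted p = 0.825) in wild-type and -0.28 (-0.68 to 0.11, adjusted p = 0.204) in knockout cells, a difference of -0.34 (-0.89 to 0.22, adjusted p = 0.383). Against the wild type the knockout gave 0.31 untreated and -0.02 with MG132 (adjusted p = 0.169 and 0.936). A second Lif probe set had signals of 4.27 to 56.4, below every array median, and was not tested.

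Of 4 tested receptors of the same cytokine pathway, 1 rose and 1 fell in wild-type cells and 1 rose and 2 fell in knockout cells. Over all genes 27.2% rose and 36.9% fell in wild-type cells, and 25.7% rose and 36.7% fell in knockout cells. Il6st, which encodes gp130, rose by 0.49 in wild-type and 0.47 in knockout cells, and was lower in untreated knockout than wild-type cells (-0.83). Lifr, the LIF receptor, gave -0.01 in wild-type cells (adjusted p = 0.956) and fell by 0.74 in knockout cells, a difference of -0.73 (adjusted p = 0.00295). Stat3, the transcription factor that gp130 activates, fell (-0.33 and -0.65). Of 5 feedback inhibitors, 1 rose and 3 fell in wild-type cells and 3 fell in knockout cells, beside the same shares of all genes. Socs2 averaged 267 and 693 in the wild type, a rise of 1.32, and 689 and 517 in the knockout (-0.41), with a difference of -1.73 (adjusted p = 4.32e-09). Socs3, an inhibitor of gp130 signalling, fell (-1.06 and -0.72), and so did Pias3, an inhibitor of STAT3 (-1.41 and -0.80). Among other ligands of this family, Ctf1 fell (-0.72 and -1.07). Clcf1 fell by 0.56 in wild-type cells, with a difference of 0.79 (adjusted p = 0.000313). Il11 rose by 0.63 in wild-type cells (means 58.6 and 102) and averaged 91.3 and 92.4 in the knockout. These Il11 means lie within or below the range of the array medians (90.1 to 113).

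**Figure D4:**
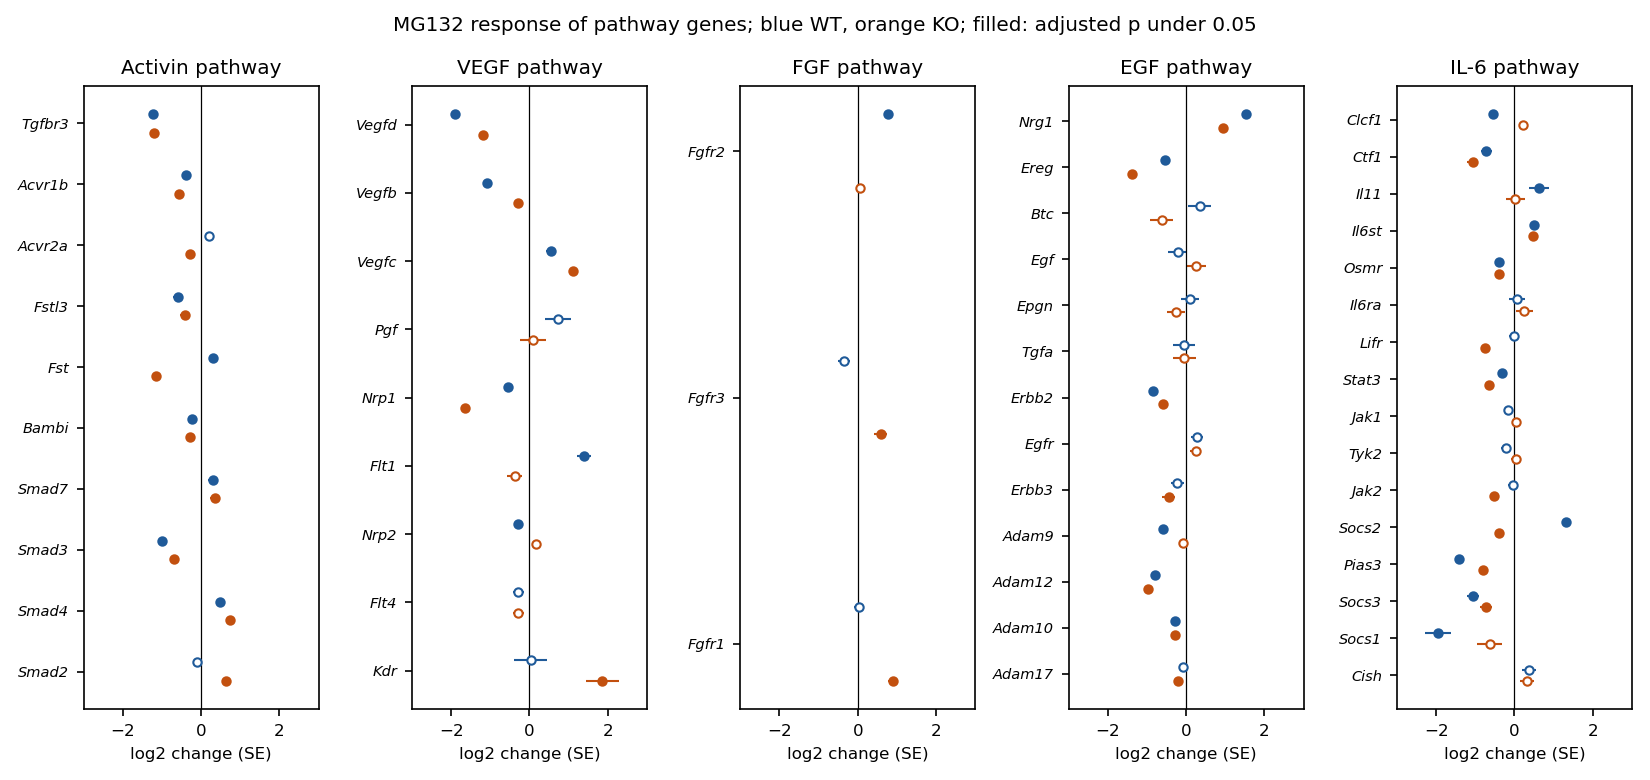
Log2 response to MG132 (x axis, bars are the SE) of the tested genes of 5 ligand pathways in wild-type (WT, blue) and knockout (KO, orange) cells; filled points have an adjusted p under 0.05. Fst and Socs2 lie on opposite sides of 0 in the 2 genotypes (0.30 and -1.16, 1.32 and -0.41).

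Of 12 tested transcription factors known to act on such genes, 5 rose and 3 fell in wild-type cells and 8 rose and 2 fell in knockout cells. In the wild type 27.2% of all genes rose and 36.9% fell, and in the knockout 25.7% rose and 36.7% fell. Atf4, an activator of Fgf21 in the stress response, rose by 0.53 and 0.56 (difference 0.04, adjusted p = 0.776) and was 0.59 higher in untreated knockout cells. Atf3, another stress factor, rose by 4.36 and 3.61, a difference of -0.76 (adjusted p = 1.95e-06). Cebpb, an activator of Il6, averaged 7439 in untreated wild-type and 3178 in untreated knockout cells, a log2 difference of -1.23, and 9686 and 5959.6 with MG132 (-0.70). Jun, a subunit of AP-1, gave -0.02 in wild-type cells (adjusted p = 0.845) and rose by 0.81 in knockout cells. Fos, another AP-1 subunit, averaged 745 and 480 in the wild type and 703 and 238 in the knockout. The difference between the responses was 0.83 for Jun but -0.89 for Fos (adjusted p = 1.50e-06 and 0.000310). Egr1, an immediate early factor, fell (-4.93 and -3.57).

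A wider list of 27 tested growth factors and cytokines was set beside the members. In wild-type cells 9 rose and 8 fell, with a median response of 0.03, and in knockout cells 5 rose and 12 fell, with a median of -0.47, beside -0.07 over all genes in each and the same shares of all genes called. For the difference, 1 was higher and 13 lower in the knockout, where 14.2% of all genes were higher and 14.1% lower, with a median of -0.44 beside -0.00154 over all genes. Pdgfc, a ligand for PDGF receptors, rose by 0.74 in wild-type and fell by 0.46 in knockout cells (difference -1.21, adjusted p = 3.49e-10). Fgf7, a factor for epithelial cells, fell (-0.22 and -1.58), as did Bmp4, a bone morphogenetic protein (-0.74 and -1.87). Stc2, a secreted glycoprotein of the stress response, rose by 1.86 and 0.59.

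For each tested member, the genes with the most similar profile were found as those with the smallest root-mean-square difference of centred log2 values over the 16 arrays. For Inhba these were Ctsw (0.21), Socs2 (0.26) and Rsbn1 (0.26), against a range of 1.5 for Inhba itself. Those for Fgf21 were Apobec1 (0.58), Ddit4 (0.61) and Slc7a3 (0.64), with a range of 5.0. Ddit4, a stress-induced inhibitor of mTOR, gave 1.03 and 1.85 in wild-type and knockout cells, and Slc7a3, an amino acid transporter, 1.89 and 1.76. Vegfa was closest to C9orf72 (0.15), Cep76 (0.16) and Gadd45b (0.16), and Hbegf to C1qtnf12 (0.13), Snrnp35 (0.14) and Pop7 (0.14). Inhbb was closest to Sfrp2 (0.52), Medag (0.61) and Npr3 (0.61), and Lif to Thap3, Vps37d and Alkbh4 (0.18 to 0.19, against a range of 0.87).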

How the data were processed

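RNA of 16 plates was hybridised to Affymetrix mouse 3' arrays after biotin labelling, per the labels' protocols. The deposited values are linear signal intensities, summarised with MAS5 per the submitters' processing notes; no version is given in the sources used here. The mean of each array after trimming 2% at each end was 1000.01, and no detection calls were used. Of 45101 probe sets, 34945 name 1 gene in the platform annotation, 932 name several, 9160 none and 64 are controls.

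Signals were tested as log2(signal + 16) in limma 3.58.1 (R 4.3.3) with a coefficient for each of the 4 groups, 12 residual and 7.67 prior degrees of freedom, a variance trend, 5 two-sided contrasts and Benjamini-Hochberg adjustment. The probe set with the highest mean log2 value, among those naming 1 gene, stood for each gene, which was tested if above the array median on 4 of 16 arrays. Further probe sets came from a fit over 21651 probe sets, and Il6 from a fit without the filter, added after its values were seen. The fit was tested on simulated data.

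The members and gene lists were chosen with earlier results of these data known. Named genes are the members, Ddit3, up to 4 genes per list and comparison with the smallest adjusted p, each then given in other comparisons too, marker genes, and 3 nearest profiles per member. Fos was named beside Jun as another AP-1 subunit. 3 settings were revised after first results, and both versions of each are given: the representative probe set, first chosen by mean signal, the median centring, first done over all probe sets, and the promoter patterns. Alternatives covered scaling, pseudocount, filter, probe set choice, samples in the fit, variance trend, replicate block and each plate left out.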

Additional observations from a re-analysis of the deposited data

Results flagged for a closer look

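The difference between the MG132 responses, knockout minus wild-type, was past the threshold of the limma test over genes for Fgf21, Vegfa, Inhba and Inhbb, and past that over probe sets for the second probe sets of Vegfa and Inhbb, beside 28.3% of genes and 24.2% of probe sets called. In the fit over probe sets the first Inhbb probe set did not pass (adjusted p = 0.0568). The difference was 1.73 for Fgf21 (adjusted p = 0.00159) and -1.46 for Inhba (adjusted p = 7.86e-08). The 2 probe sets of Vegfa gave 0.35 and 0.52 (adjusted p = 0.0320 and 0.0184), and those of Inhbb -1.0 and -1.37 (adjusted p = 0.0479 and 0.0395).

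In 48 combinations of probe set and group, 4 had an array whose gap to the nearest other exceeded Dixon's critical value, and chance gives about 1 in 20. In treated wild-type cells these were a high value of 916 in the second Vegfa probe set, a low value of 1827 for Hbegf and a high value of 31.3 in the low Inhba probe set. In treated knockout cells Lif had a low value of 112.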

How the results depend on the processing

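Of 1024 values of single members under alternatives, 976 kept their direction and side of the threshold, 30 lost a call, 5 gained one and 13 turned sign, 0 of which were called. Apart from the untreated Hbegf comparison, the lost calls were those of Vegfa and Inhbb for the difference between responses. Upward calls for the difference numbered 1 in place of 2 with quantile normalisation, median centring or the filter on 8 arrays. That filter removes Fgf21, and with it the upward call of Fgf21 in every comparison, which left 1 upward call in the knockout response. Downward calls for the difference numbered 1 in place of 2 with quantile normalisation, a pseudocount of 1, no variance trend or centring over all probe sets. Leaving out single plates gave 1 to 2 calls in each direction. Without the filter, Il6 was added and 2 members were lower in the knockout under MG132.

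The 2 versions of median centring, over all probe sets at first and over tested genes after first results were seen, shifted all genes in opposite directions in wild-type cells, by 0.20 over tested genes and -0.05 over all probe sets (0.14 and 0.04 in the knockout). With centring over all probe sets 1644 genes were higher and 713 lower in the difference (1622 and 1616 otherwise), 4029 and 2318 between treated genotypes (3508 and 3206), Inhbb gave -0.90 (adjusted p = 0.0867) and Vegfa 0.44 (adjusted p = 0.0250). Choosing probe sets by mean signal left 11451 genes and changed no call of a member.

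Sign changes, none of them called, concerned Lif and Il6. For Lif, treated knockout against wild-type cells gave 0.11 with quantile normalisation, 0.074 with centring over all probe sets, 0.21 with the mean of probe sets and -0.10 to 0.12 without single plates. The mean of probe sets also gave -0.30 for Lif in wild-type cells and 0.075 for its difference, and single plates left out -0.052 to 0.18 in wild-type cells. Il6 in knockout cells gave 0.014 with median centring and -0.44 to 0.000984 without single plates.

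The labels tie replicate numbers to no shared culture or day, and not every pair correlated above 0.1, so the numbers were not used as pairs. Of 24 same-number pairs, 5 had deviations correlated above 0.1 (-0.07 to 0.16), and 23 of 48 best matches shared a number, where unrelated numbers would give 12. All 4 pairs of untreated plates across genotypes correlated positively (0.079 to 0.16), as did all 4 of untreated with treated knockout plates (0.024 to 0.14), a hint of pairing from the data, not from the design. With the replicate block the members called were the same in number in each comparison (3 higher and 2 lower in the wild-type response), and the difference had adjusted p = 0.0411 for Vegfa and 0.0495 for Inhbb. Fits on only the groups compared give no value for the difference. Low signals limit Fgf21, Il6 and Inhbb, and 4 plates per group limit the precision throughout.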
